A study of Mus musculus with 18 samples.

Results

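Neurotrophic factors are proteins that keep neurons alive, and the set described here held 10 genes: the ligands Gdnf, Bdnf, Cntf and Ptn, and the receptors Ret, Gfra1, Gfra2, Ntrk2, Ntrk3 and Cntfr. They were taken by symbol from the deposited table, and all 10 of the listed symbols were found among its 55270 genes. RNA came from the substantia nigra of wild-type mice, 3 months old, in 3 groups of 6 mice. The intact group carries the WT genotype with no treatment named, the AAV-GFP group was made to overexpress green fluorescent protein from an adeno-associated virus, and the AAV-SIRT3 group was made to overexpress SIRT3, a mitochondrial deacetylase, from the same kind of virus. Tissue was collected about a month after the virus. The promoter and the cells the virus entered are not given in the sources used here. The intact mice are not described as injected, so the injection and the virus cannot be told apart in either comparison with them.

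The ligands of this set act through different receptors. GDNF binds a membrane-anchored co-receptor, GFRA1, and the pair then activates RET, a receptor tyrosine kinase for which dopaminergic neurons of the nigra are a well-known site. GFRA2 serves the related ligand neurturin in the same way. BDNF acts on TrkB, the product of Ntrk2, and neurotrophin-3 acts on TrkC, the product of Ntrk3. CNTF binds the anchored receptor CNTFR, which recruits the signalling chains LIFR and gp130, and pleiotrophin, the product of Ptn, is a heparin-binding growth factor of glia and neurons that acts through the receptor phosphatase PTPRZ1 among others.

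Every value below is a total over the transcripts of a gene, and for Ret, Ntrk2 and Ntrk3 these encode proteins with different ends. The last 36 coding bases of the main forms are shown because a gene total cannot tell them apart. They were read from GENCODE M21 (GRCm38) transcripts and run 5′ to 3′ on the coding strand, with the stop codon in capitals.
Ntrk3, kinase-bearing forms of 825, 839 and 864 residues, chr7:78192559-78192594, minus strand: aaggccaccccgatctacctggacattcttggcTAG
Ntrk3, short form of 612 residues, chr7:78302629-78302664, minus strand: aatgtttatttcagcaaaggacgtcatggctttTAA
Ntrk2, kinase-bearing form of 821 residues, chr13:59128318-59128353, plus strand: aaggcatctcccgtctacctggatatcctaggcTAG
Ntrk2, short form of 476 residues, chr13:58932025-58932060, plus strand: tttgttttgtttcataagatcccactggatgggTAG
Ret, form of 1115 residues, chr6:118153853-118153888, minus strand: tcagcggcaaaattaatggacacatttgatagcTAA
Ret, form of 1073 residues, chr6:118155256-118155291, minus strand: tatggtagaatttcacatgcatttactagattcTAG
The short TrkB and TrkC proteins lack the kinase domain and are known as truncated receptors. The annotation holds 7 complete Ntrk2 coding transcripts with 5 different coding ends, 4 for Ntrk3 with 2, and 2 for Ret with 2.

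Against intact mice, mRNA of the neurotrophin-3 receptor gene Ntrk3 fell by 22.5% with AAV-GFP and fell by 25.1% with AAV-SIRT3. Ret fell by 18.7% in AAV-GFP mice, and Cntfr was 10.6% higher in AAV-SIRT3 mice. Between AAV-SIRT3 and AAV-GFP, none of the members passed the threshold. Gdnf and Cntf were low in every library, at no more than 45.1 and 11.9 normalised reads. The Cntf value depends on how reads shared with another gene, Zfp91, were counted.

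Of the 10 members, 9 reached 10 normalised reads in 6 or more libraries, the condition for entering the test. The test was limma on log2(normalised reads + 1), with adjusted p-values (Benjamini-Hochberg over the 19443 genes tested) called under 0.05. In AAV-GFP against intact, 2 of the 9 were called, both lower, where 1.84% of all tested genes were called and 1.02% were lower. In AAV-SIRT3 against intact, 2 of the 9 were called, 1 lower and 1 higher, where 21.7% of all tested genes were called, 10.3% lower and 11.3% higher, so that this share of members is close to the background. In AAV-SIRT3 against AAV-GFP, 0 of the 9 were called by limma, by edgeR or by DESeq2, and 1, Ret, had an unadjusted p under 0.05, as had 2964 of the 19443 genes tested; the background of adjusted calls was 0.113%. The median log2 fold change of the 9 was -0.05 in AAV-GFP against intact, -0.004 in AAV-SIRT3 against intact and 0.06 in AAV-SIRT3 against AAV-GFP, while over all tested genes it was 0.0007, -0.005 and -0.004. The comparisons share groups and are therefore not independent of each other.

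**Figure D1:**
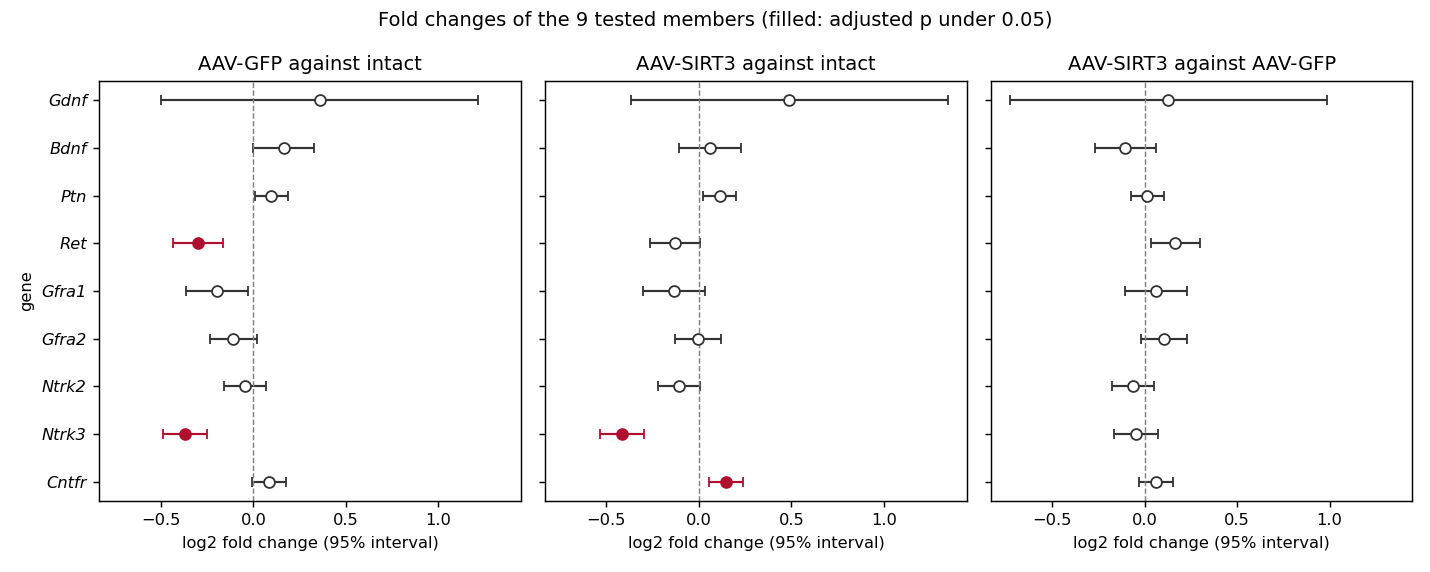
Log2 fold change (horizontal axis, from log2(normalised reads + 1)) of the 9 tested members in the 3 comparisons, with 95% intervals from limma and filled red points where the adjusted p is under 0.05. Ret and Ntrk3 lie below 0 in AAV-GFP against intact, Ntrk3 lies below 0 and Cntfr above 0 in AAV-SIRT3 against intact, and no point is filled in AAV-SIRT3 against AAV-GFP.

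Each library held between 47182529 and 64728587 reads counted in genes. Th, which encodes tyrosine hydroxylase, had 5729 ± 761 normalised reads in the intact group, 4711 ± 659 with AAV-GFP and 5756 ± 186 with AAV-SIRT3 (SD, n = 6 each), and all 14 dopaminergic neuron markers were above 0 in every group. Sirt3 itself had 1824 ± 66.3, 1775 ± 92.4 and 1937 ± 79.4 normalised reads in the same order (SD, n = 6 each). Its log2 fold change between AAV-SIRT3 and AAV-GFP was 0.13 and did not pass (limma, adjusted p = 0.183), so the transcript is a weak check of the labels. Markers of thalamus, a neighbouring region, summed to between 54805 and 109604 in the intact group, 92280 and 105221 with AAV-GFP, and 86499 and 116223 with AAV-SIRT3. Pituitary markers summed to between 741 and 5429 in intact libraries and to at most 702 with AAV-GFP and 807 with AAV-SIRT3, and choroid plexus markers reached 49987 in 1 intact and 44358 in 1 AAV-GFP library against medians of 2242 and 1778. Of the 6 Schwann cell markers, 5 were above 0 in both groups given virus and Pmp2 was at 0 there. The list summed to 1842 ± 195 in the intact group, 1772 ± 167 with AAV-GFP and 1693 ± 117 with AAV-SIRT3 (SD, n = 6 each).

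Per kilobase of annotated exon, the intact nigra held the members at levels that differed by orders of magnitude. Ptn had the highest level, 3631 ± 194 normalised reads per kilobase (SD, n = 6). Next came Ntrk2 with 2323 ± 87.7, Cntfr with 1825 ± 78.1 and Ret with 1109 ± 87.0. Gfra2 (745 ± 65.8) and Gfra1 (651 ± 66.3) overlapped between libraries, and Ntrk3 (300.2 ± 20.6) and Bdnf (178 ± 19.4) followed. Cntf (6.52 ± 2.78) and Gdnf (5.21 ± 3.00) came last and overlapped. All other neighbours in this order were separated in every intact library. Divided by the longest transcript instead, Ntrk2 stood above Ptn and Gfra1 above Gfra2, so neither order is firm. The place of Cntf is not firm either. Its level was divided by all 1073 exonic bases, of which 847 are shared with another gene, Zfp91, on the same strand. How shared reads were counted is not given in the sources used here.

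**Figure D2:**
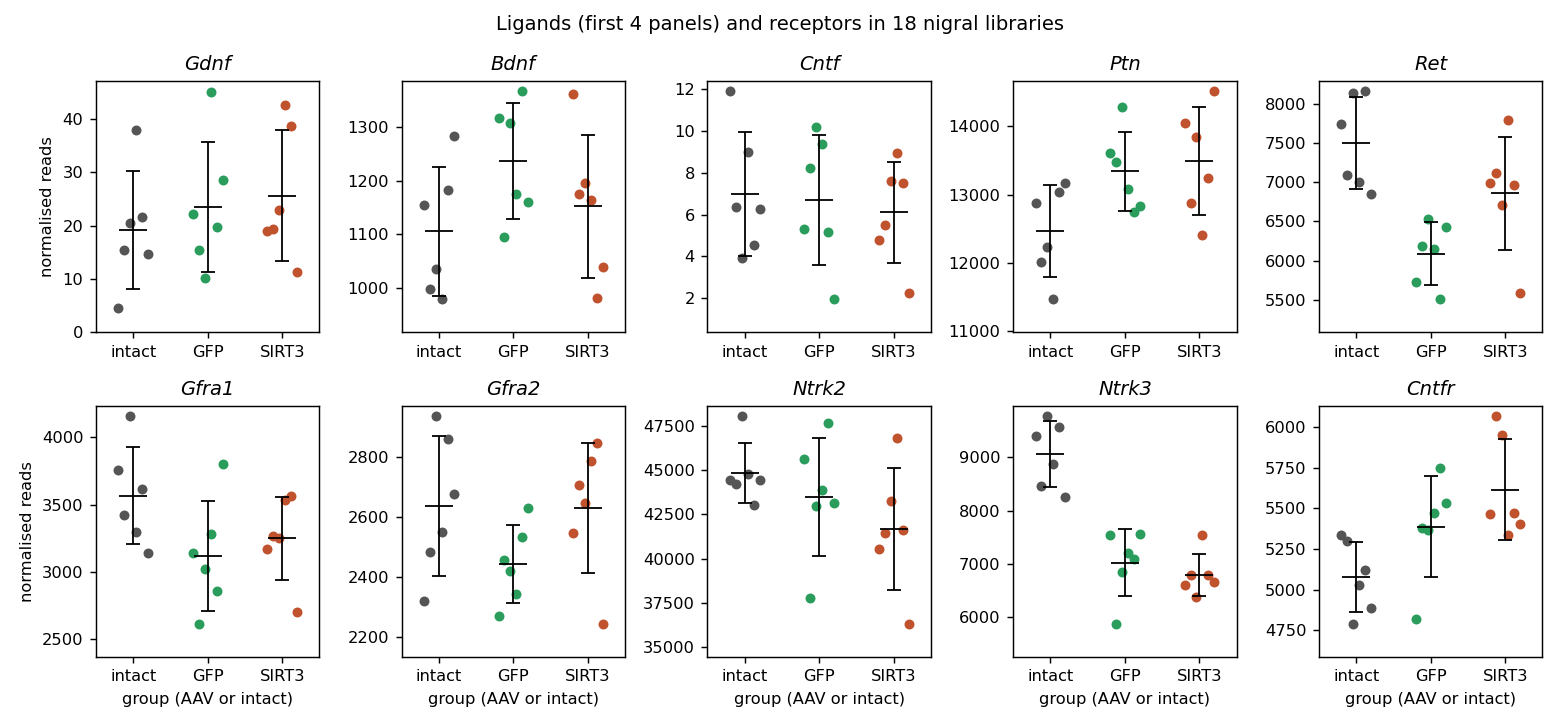
Normalised reads (vertical axis, own scale in each panel and not starting at 0 in most) of the 10 members in the 18 libraries, with points for libraries in replicate order and black marks for the mean and SD of each group of 6. Ntrk3 is higher in all 6 intact libraries than in any library given virus, and the AAV-GFP libraries of Ret lie below all intact ones.

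Among the ligands, Gdnf and Cntf had far fewer reads than Bdnf and Ptn. Gdnf (chromosome 15, 7810846 to 7837575, plus strand) ran from 4.57 to 38.0 normalised reads in intact libraries with a median of 17.96, from 10.2 to 45.1 in AAV-GFP with a median of 21.0, and from 11.3 to 42.7 in AAV-SIRT3 with a median of 21.1. The groups overlapped throughout, and the coefficient of variation was 57.7% over the intact, 52.0% over the AAV-GFP and 48.0% over the AAV-SIRT3 libraries. Its log2 fold change was 0.36 in AAV-GFP against intact (SE 0.41, limma adjusted p = 0.684) and 0.49 in AAV-SIRT3 against intact (SE 0.41, adjusted p = 0.426). The 95% interval of the difference between AAV-SIRT3 and AAV-GFP ran from -39.6% to 98.0%, so changes within that range could not be told from none with these libraries.

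Bdnf (chromosome 2, 109674700 to 109727007, plus strand) encodes the activity-regulated ligand of TrkB. It had between 979 and 1284 normalised reads in intact libraries (median 1095), 1094 to 1367 with AAV-GFP (median 1241) and 980.5 to 1362 with AAV-SIRT3 (median 1169). All 3 groups overlapped. The log2 fold change was 0.16 in AAV-GFP against intact (SE 0.080, limma adjusted p = 0.267), 0.06 in AAV-SIRT3 against intact (adjusted p = 0.637) and -0.11 in AAV-SIRT3 against AAV-GFP (SE 0.080, adjusted p = 0.552). The 95% interval of the last difference ran from -17.1% to 4.28%. An antisense gene, Gm45346, shares 896 exonic bases with Bdnf and had a mean of 2.63 normalised reads, far under the level of Bdnf.

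Cntf encodes a cytokine of the interleukin-6 family that is known from astrocytes and Schwann cells. It was left out of the fit across genes because of its low level, 2 to 13 recovered reads per library. Normalised reads ran from 3.91 to 11.9 in intact (median 6.30), 1.96 to 10.2 in AAV-GFP (median 6.75) and 2.25 to 8.93 in AAV-SIRT3 (median 6.52). The groups overlapped, and exact two-sided permutation tests of log2(value + 1) gave differences of -0.10 for AAV-GFP minus intact (p = 0.786), -0.18 for AAV-SIRT3 minus intact (p = 0.610) and -0.08 for AAV-SIRT3 minus AAV-GFP (p = 0.810), where the smallest p that 6 against 6 can give is 0.00216. In the annotation 847 of the 1073 exonic bases of Cntf, and all 594 coding ones, also belong to exons of Zfp91 on the same strand. Zfp91 had a mean of 7673 normalised reads, so the value of Cntf depends on how reads shared by both genes were counted, which is not given in the sources used here.

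Ptn (chromosome 6, 36714929 to 36810220, minus strand) was abundant and varied little. It had between 11474 and 13167 normalised reads in intact libraries (median 12557), 12750 to 14275 with AAV-GFP (median 13275) and 12408 to 14507 with AAV-SIRT3 (median 13541). Both groups given virus overlapped the intact range, with 29 and 30 of 36 pairs of libraries higher than intact. The log2 fold changes were 0.10 in AAV-GFP against intact (SE 0.043, limma adjusted p = 0.218), 0.11 in AAV-SIRT3 against intact (SE 0.043, adjusted p = 0.065) and 0.02 in AAV-SIRT3 against AAV-GFP (adjusted p = 0.903). The Ptn difference in AAV-SIRT3 against intact passed the threshold without AAV-SIRT3 replicate 4 (0.14, adjusted p = 0.0275) and without intact replicate 6 (0.13, adjusted p = 0.0455), and also with the dopaminergic neuron markers as a covariate (0.12, adjusted p = 0.0492).

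Of the GDNF receptors, Ret fell in AAV-GFP mice. Ret (chromosome 6, 118151745 to 118197718, minus strand) had between 6855 and 8156 normalised reads in intact libraries (median 7419), 5514 to 6535 with AAV-GFP (median 6173) and 5590 to 7789 with AAV-SIRT3 (median 6980). Every AAV-GFP library lay below every intact library, which was so for 0.988% of all tested genes, and the AAV-SIRT3 libraries overlapped both other groups. The means were 7498 ± 588, 6092 ± 397 and 6861 ± 720 (SD, n = 6 each). The log2 fold change in AAV-GFP against intact was -0.30 (SE 0.065, limma adjusted p = 0.0214). In AAV-SIRT3 against intact it was -0.13 (SE 0.065, adjusted p = 0.153), and in AAV-SIRT3 against AAV-GFP it was 0.17 (SE 0.065, adjusted p = 0.234), with AAV-SIRT3 higher in 31 of 36 pairs. The fall of Ret in AAV-GFP mice no longer passed without intact replicate 3 (-0.27, adjusted p = 0.066), intact replicate 5 (-0.27, adjusted p = 0.0572) or AAV-GFP replicate 5 (-0.27, adjusted p = 0.0563).

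Dopaminergic neuron markers were mostly lower where Ret was lower. In AAV-GFP against intact, 13 of the 14 markers had a negative fold change and 2 were called lower, where 1.02% of all tested genes were. The summed level of the markers ran from 39839 to 51440 with AAV-GFP, from 44933 to 61751 in intact mice and from 46434 to 54624 with AAV-SIRT3. The dip was not particular to dopaminergic markers. Nigral GABAergic neuron markers summed to between 49410 and 60456 with AAV-GFP, 56534 and 66142 in intact mice, and 50442 and 68098 with AAV-SIRT3. Only 2 of these 8 had a positive fold change in AAV-GFP against intact (median -0.16), and 0 were called. In bulk tissue, fewer cells of a type and less RNA per cell cannot be told apart. With the mean log2 level of the dopaminergic markers in each library as a covariate, the Ret difference between AAV-GFP and intact was -0.16 and did not pass (limma, adjusted p = 0.219). With the mean log2 level of the thalamus markers as covariate, Ret gave -0.22 (adjusted p = 0.301), and with that of hippocampus and cortex markers -0.28 (adjusted p = 0.0527). In this comparison limma called 358 of all 19443 genes in the main fit. It called 11 with the dopaminergic, 31 with the thalamus and 175 with the hippocampus and cortex covariate. Calls over all genes thus fell with each covariate, and the part of cell content in the Ret difference was not tested.

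The co-receptor genes did not pass in any comparison. Gfra1 (chromosome 19, 58235604 to 58455909, minus strand) had between 3144 and 4157 normalised reads in intact (median 3522), 2617 to 3801 with AAV-GFP (median 3078) and 2705 to 3563 with AAV-SIRT3 libraries (median 3259). The groups overlapped, and the log2 fold changes were -0.20 in AAV-GFP against intact (SE 0.080, limma adjusted p = 0.182), -0.13 in AAV-SIRT3 against intact (adjusted p = 0.244) and 0.06 in AAV-SIRT3 against AAV-GFP (adjusted p = 0.754). Gfra2 (chromosome 14, 70890120 to 70979838, plus strand) had between 2321 and 2935 in intact (median 2613), 2271 to 2630 with AAV-GFP (median 2439) and 2245 to 2847 with AAV-SIRT3 (median 2676). The ranges overlapped, with log2 fold changes of -0.11 (adjusted p = 0.343), -0.004 (adjusted p = 0.971) and 0.10 (adjusted p = 0.420) in the same order. The 95% interval of Gfra2 between AAV-SIRT3 and AAV-GFP ran from -1.48% to 17.2%.

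Of the Trk receptor genes among the members, Ntrk3 fell in both groups given virus. Ntrk3 (chromosome 7, 78175959 to 78738012, minus strand) had between 8260 and 9774 normalised reads in intact libraries (median 9142), 5876 to 7565 with AAV-GFP (median 7146) and 6369 to 7542 with AAV-SIRT3 (median 6715). All 6 intact libraries were higher than all 12 libraries given virus, and the groups given virus overlapped each other. A gap of this kind downwards was seen for 0.988% of tested genes in AAV-GFP against intact and for 4.32% in AAV-SIRT3 against intact. The means were 9058 ± 620 in the intact group, 7021 ± 625 with AAV-GFP and 6788 ± 399 with AAV-SIRT3 (SD, n = 6 each).

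The log2 fold change of Ntrk3 was -0.37 in AAV-GFP against intact (SE 0.057, limma adjusted p = 0.00297) and -0.42 in AAV-SIRT3 against intact (SE 0.057, adjusted p = 0.000295). Both calls held whichever of the 18 libraries was left out. Between AAV-SIRT3 and AAV-GFP the difference was -0.05 (SE 0.057, adjusted p = 0.748), with a 95% interval from -10.8% to 5.19%. After removal of the trend of fold change with transcript length and GC content, the Ntrk3 values were -0.20 (adjusted p = 0.0361) and -0.15 (adjusted p = 0.0301), less than in the main fit by over 1.5 times; the longest Ntrk3 transcript has 19703 bases, the longest of any member.

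Thalamus markers moved opposite to Ntrk3 on average, though not evenly over the intact libraries. They summed to 109604 in intact replicate 2 and 101429 in replicate 6, beside 84816 in replicate 4 and 54805 to 57808 in replicates 1, 3 and 5. Ntrk3 in intact replicates 2 and 6 was 8460 and 8260, the lowest of the intact group, beside at most 7565 in libraries given virus. All 12 thalamus markers had positive fold changes in both comparisons with intact, with 2 called in AAV-GFP and 8 in AAV-SIRT3 mice, and none of them was at 0. Their median log2 fold change was alike, 0.60 and 0.65, while 1.84% and 21.7% of all tested genes were called in these comparisons. With their mean log2 level as a covariate, Ntrk3 gave -0.28 in AAV-GFP against intact and did not pass (limma, adjusted p = 0.112), and -0.32 in AAV-SIRT3 against intact, which passed (adjusted p = 0.0113). With the dopaminergic markers as covariate the AAV-GFP value of Ntrk3 was -0.34 and did not pass (adjusted p = 0.0709), and the AAV-SIRT3 value was -0.41 and passed (adjusted p = 0.000322). Over all 19443 genes, calls in AAV-GFP against intact went from 358 to 31 with the thalamus and 11 with the dopaminergic covariate. In AAV-SIRT3 against intact they went from 4214 to 1743 and 4310. Microglia markers also moved, with 10 of 11 positive and 5 called higher in AAV-GFP, and 10 of 11 positive and 7 called higher in AAV-SIRT3 mice; they summed to between 21283 and 23721 in the intact group, 23552 and 30039 with AAV-GFP, and 24079 and 28586 with AAV-SIRT3. The part of microglia in the Ntrk3 result was not tested.

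Ntrk2, the BDNF receptor gene (chromosome 13, 58806569 to 59133970, plus strand), had the most normalised reads of the members before division by length. It ran from 43041 to 48050 in intact (median 44425), from 37762 to 47641 with AAV-GFP (median 43492) and from 36330 to 46819 with AAV-SIRT3 (median 41534). The groups overlapped. Log2 fold changes were -0.05 in AAV-GFP against intact (SE 0.055, limma adjusted p = 0.695), -0.11 in AAV-SIRT3 against intact (SE 0.055, adjusted p = 0.162) and -0.06 in AAV-SIRT3 against AAV-GFP (adjusted p = 0.615). The 95% interval between AAV-SIRT3 and AAV-GFP ran from -11.5% to 3.59%. A shift between the long and the short TrkB form would not show in this total.

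Cntfr, the CNTF receptor gene (chromosome 4, 41657498 to 41697089, minus strand), rose in AAV-SIRT3 against intact mice. It had between 4792 and 5335 normalised reads in intact (median 5077), 4818 to 5748 with AAV-GFP (median 5427) and 5335 to 6066 with AAV-SIRT3 libraries (median 5468). The lowest AAV-SIRT3 library and the highest intact library lay next to each other, so the groups overlapped in 1 of 36 pairs. The log2 fold change was 0.14 in AAV-SIRT3 against intact (SE 0.044, limma adjusted p = 0.0239), 0.08 in AAV-GFP against intact (adjusted p = 0.307) and 0.06 in AAV-SIRT3 against AAV-GFP (adjusted p = 0.537).

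Of the 31 alternatives, the Cntfr call was lost in 5, beside 6 for Ret in AAV-GFP against intact. Cntfr did not pass without intact replicate 3 (0.13, limma adjusted p = 0.0591), AAV-SIRT3 replicate 2 (0.12, adjusted p = 0.0615) or AAV-SIRT3 replicate 3 (0.13, adjusted p = 0.0573). With the length and GC trend removed Cntfr gave 0.06 (adjusted p = 0.384), and with the thalamus markers as covariate 0.12 (adjusted p = 0.175). Of all 19443 genes, 1743 were called in AAV-SIRT3 against intact with the thalamus covariate, beside 4214 in the main fit.

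**Figure D3:**
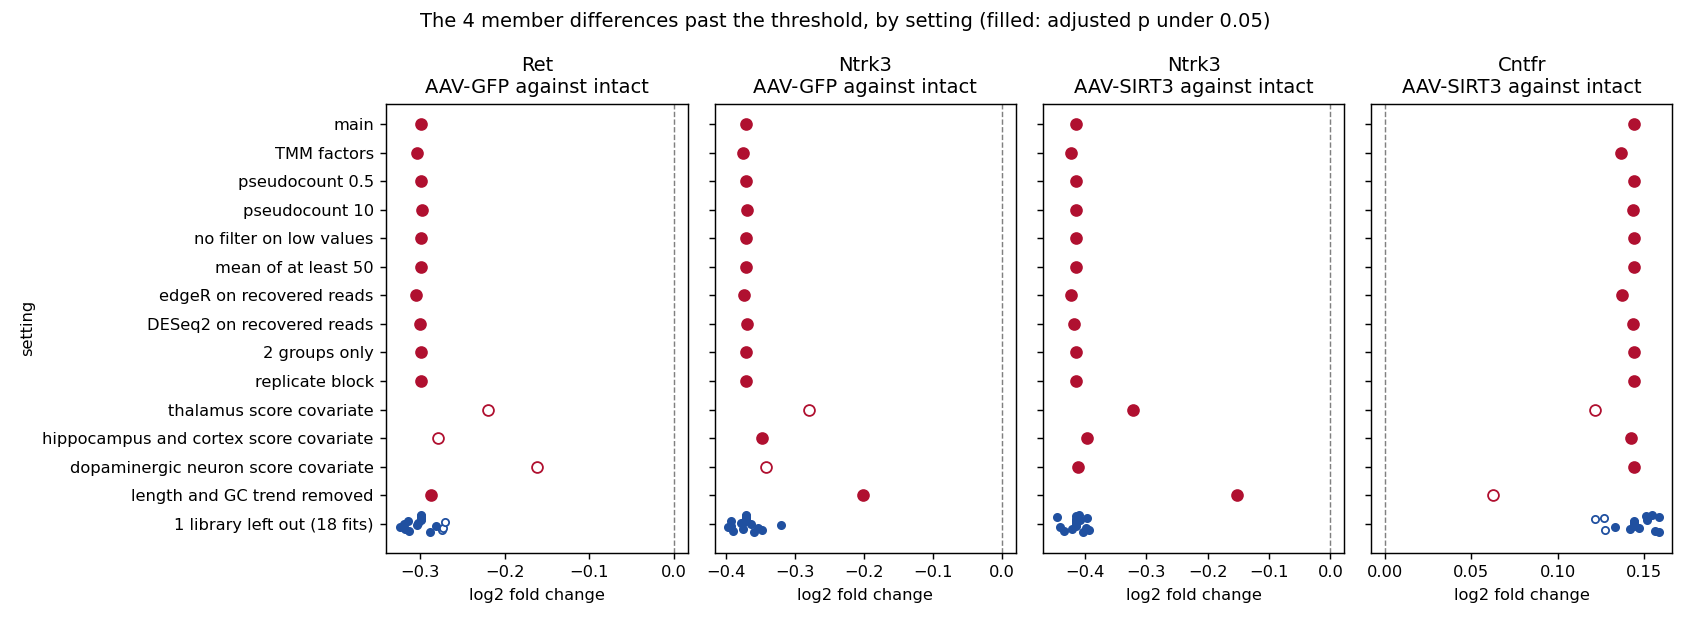
Log2 fold change (horizontal axis) of the 4 differences past the threshold under each setting (vertical axis), with red points for the settings, blue points for the 18 fits that left out 1 library, and filled points where the adjusted p is under 0.05. Every point keeps the sign of the main value; Ntrk3 in AAV-SIRT3 against intact is filled throughout, and its value with the length and GC trend removed is -0.15.

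Single libraries carried several members together. AAV-SIRT3 replicate 6 was the lowest of its group for 6 of the 10 members, Gdnf, Cntf, Ret, Gfra1, Gfra2 and Ntrk2, and the highest for Ptn. AAV-SIRT3 replicate 4 topped its group for 5, among them Ret, Ntrk2 and Ntrk3. AAV-GFP replicate 2 was the lowest for Bdnf, Gfra1, Ntrk2 and Ntrk3. Without AAV-SIRT3 replicate 6, Ret in AAV-SIRT3 against AAV-GFP was 0.22 and did not pass (limma, adjusted p = 0.120).

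Members were also compared by how they varied within groups. Deviations of log2 values from the group means were correlated for all 36 pairs of the 9 tested members over the 18 libraries, with permutation within groups (100000 resamples). The strongest pair was Gfra1 with Ntrk3, with Pearson r = 0.74 (permutation p = 0.00256, adjusted 0.0553 over 36 pairs) and Spearman rho = 0.77 (p = 0.00106, adjusted 0.0382), and r was 0.79 without the 2 libraries farthest from the median of Gfra1. Ret and Gfra1, which encode the signalling and the binding part of the GDNF receptor, gave r = 0.68 (permutation p = 0.00307, adjusted 0.0553) and rho = 0.69 (p = 0.00411, adjusted 0.0740), and r was 0.55 without the 2 libraries farthest from the median of Ret. Of the 36 pairs, 0 passed after adjustment by r and 1 by rho, and the median r was 0.09.

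For each member with a mean of at least 50 normalised reads, the genes most like it over the 18 libraries were found by Pearson r of log2 values, given as a measure of likeness with no test since they are the highest of 19443 genes. Ret was most like Slc6a3, the dopamine transporter gene (r = 0.92, and 0.86 within groups), followed by Fgf11 (0.88) and Chrna6, a nicotinic receptor subunit of dopaminergic neurons (0.86). Slc6a3 had a median of 11103 normalised reads in the intact group, 8404 with AAV-GFP and 10656 with AAV-SIRT3, an order of groups that Ret shared. A choice by r over all 18 libraries favours genes with that order, so it is no separate result. Th did not share it, with medians of 5679, 4686 and 5763 in the same groups. Gfra1 was most like Adcy2 (0.91), Gad2, which encodes a GABA-synthesising enzyme (0.89), and Dennd1a (0.88).

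Ntrk3 was most like Slc7a1, a cationic amino acid transporter gene (r = 0.96, and 0.85 within groups), Csmd2 (0.95) and Nav1 (0.95). For Ntrk2 the genes were Xpr1 (0.94), Rsbn1 (0.92) and Ppp4r3b (0.92), for Gfra2 they were Tmem132e (0.81), Mmp17 (0.79) and Ap1ar (0.79), and for Cntfr they were Dlst (0.87), Desi1 (0.87) and Hdac5 (0.86). Bdnf was most like Lrrn3 (0.89), Inhba (0.86) and Fam98a (0.82), and Ptn most like Fnta (0.87), Paip2 (0.86) and Tlr7 (0.84).

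**Figure D4:**
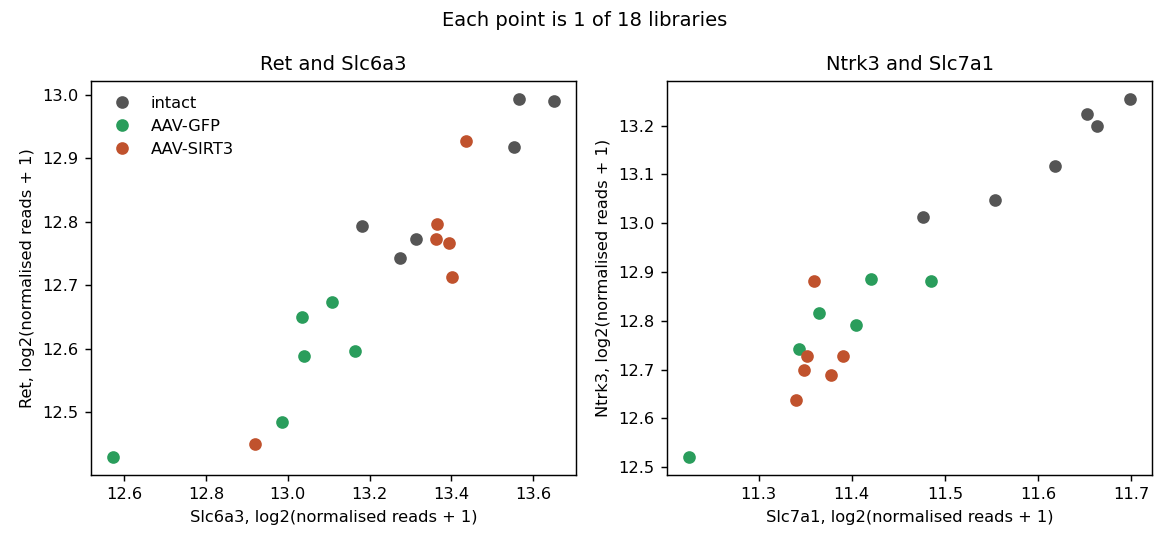
Log2(normalised reads + 1) of Ret against Slc6a3 and of Ntrk3 against Slc7a1 in the 18 libraries, 1 point per library coloured by group. In the Ret panel the AAV-GFP libraries lie at lower left with 1 AAV-SIRT3 library. In the Ntrk3 panel the 6 intact libraries lie above all others on the Ntrk3 axis, and on the Slc7a1 axis they overlap the AAV-GFP libraries.

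Other genes of the same pathways were read from 8 lists of 130 genes, of which 123 were tested. In AAV-GFP against intact 1 of them was called, higher, or 0.813%, beside the background of 1.84%. In AAV-SIRT3 against intact 28 were called, 10 higher and 18 lower, or 22.8%, near the background of 21.7%. In AAV-SIRT3 against AAV-GFP limma called 0 of 123, with 24 at an unadjusted p under 0.05, edgeR called 0 and DESeq2 called 7. Over all genes, 2964 of 19443 had an unadjusted p under 0.05 and DESeq2 called 304 of 17171. Without AAV-GFP replicate 2, limma called 9 of the pathway genes and 861 of all 19443, and without AAV-GFP replicate 6, AAV-SIRT3 replicate 1 or AAV-SIRT3 replicate 6 it called 1 pathway gene.

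Of the 8 other neurotrophin ligands and receptors tested, 0 were called in AAV-GFP against intact and 1, Sorl1, a sorting receptor gene, was called lower in AAV-SIRT3 against intact (-0.16, limma adjusted p = 0.0294). Of all tested genes, 1.84% and 21.7% were called in these comparisons. Ntf3, which encodes the TrkC ligand neurotrophin-3, had 73.6 ± 19.3 normalised reads in the intact group, 55.8 ± 10.3 with AAV-GFP and 64.0 ± 14.8 with AAV-SIRT3 (SD, n = 6 each). Its log2 fold change was -0.37 in AAV-GFP against intact (SE 0.20, adjusted p = 0.307) and 0.18 in AAV-SIRT3 against AAV-GFP (SE 0.20, adjusted p = 0.702), and neither passed. Sorl1 gave -0.04 (adjusted p = 0.511) with the length and GC trend removed.

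In the GDNF family, 2 of 5 tested genes were called higher in AAV-SIRT3 against intact and 0 in the other comparisons. Of all tested genes, 11.3% were called higher in AAV-SIRT3 against intact. Nrtn, which encodes the GFRA2 ligand neurturin, had 73.9 ± 16.2 normalised reads in the intact group, 99.2 ± 20.5 with AAV-GFP and 105 ± 14.4 with AAV-SIRT3 (SD, n = 6 each), and its log2 fold change in AAV-SIRT3 against intact was 0.52 (SE 0.16, limma adjusted p = 0.0233). Gfra4, the persephin co-receptor gene, had 1177 ± 85.5, 1193 ± 133 and 1373 ± 97.3 in the same order (SD, n = 6 each), with 0.22 in AAV-SIRT3 against intact (SE 0.068, adjusted p = 0.0243) and 0.21 in AAV-SIRT3 against AAV-GFP, which did not pass (adjusted p = 0.180). With the thalamus markers as covariate neither passed, Nrtn at 0.42 (adjusted p = 0.197) and Gfra4 at 0.21 (adjusted p = 0.135), and with the length and GC trend removed they gave 0.45 (adjusted p = 0.0519) and 0.14 (adjusted p = 0.123). Both calls were lost without intact replicate 4 (Nrtn 0.47, adjusted p = 0.0537; Gfra4 0.21, adjusted p = 0.0538) and without AAV-SIRT3 replicate 6 (Nrtn 0.45, adjusted p = 0.0595; Gfra4 0.19, adjusted p = 0.0596), and that of Nrtn also without intact replicate 3 (0.46, adjusted p = 0.0571).

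Of the 14 tested genes of the CNTF and gp130 pathway, 1 was called in AAV-SIRT3 against intact, where 21.7% of all tested genes were called. Il6st, which encodes the shared signalling chain gp130, had 8684 ± 219 normalised reads in the intact group, 8236 ± 738 with AAV-GFP and 7419 ± 431 with AAV-SIRT3 (SD, n = 6 each) and fell by 0.23 on the log2 scale (SE 0.051, limma adjusted p = 0.00367), with no overlap between AAV-SIRT3 and intact. A gap of this kind downwards was seen for 4.32% of tested genes. The fall of Il6st was -0.11 with the length and GC trend removed (adjusted p = 0.0340). In the midkine and pleiotrophin list, 2 of 11 were called in AAV-SIRT3 against intact: Lrp1, an endocytic receptor that binds both ligands, was lower (-0.29, SE 0.044, adjusted p = 0.000546) and Sdc4, a heparan sulphate proteoglycan, was higher (0.30, SE 0.067, adjusted p = 0.00358). Lrp1 gave -0.15 with the length and GC trend removed (adjusted p = 0.00213).

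Of 10 tested genes that process neurotrophins, 3 were called lower in AAV-SIRT3 against intact, Pcsk1 (-0.27), Plat (-0.20) and Mmp2 (-0.36), which encode a prohormone convertase, tissue plasminogen activator and a matrix metalloproteinase. Of 27 other trophic factors and receptors, 12 were called there, 3 higher and 9 lower. Of all tested genes, 21.7% were called in this comparison, 11.3% higher and 10.3% lower, and the lists were not tested as sets. Those with the largest changes were Kdr, a VEGF receptor gene (-0.58, SE 0.099, limma adjusted p = 0.000936), Egf (-0.55), Egfr (-0.37) and Erbb4 (-0.32), all lower. Endothelial markers, of which 4 of 9 were called lower and 1 higher in the same comparison, summed to between 9051 and 11709 in intact and between 8273 and 11844 in AAV-SIRT3 libraries; their part in the Kdr value was not tested. Erbb4 gave -0.13 with the length and GC trend removed (adjusted p = 0.0712) and -0.26 with the thalamus covariate (adjusted p = 0.129).

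Downstream of the receptors, 4 of 28 tested adaptors and kinases were called in AAV-SIRT3 against intact, where 21.7% of all tested genes were called. Frs2 (-0.22) and Kidins220 (-0.18), scaffold proteins of Trk receptors, were lower. Mapk3 (0.12) and Map2k2 (0.18), kinases of the ERK cascade, were higher. Of 20 genes that respond to trophic factors or activity, Dusp6, an ERK phosphatase gene, was called in both comparisons with intact. Dusp6 had 1255 ± 229 normalised reads in the intact group, 1768 ± 91.6 with AAV-GFP and 1666 ± 211 with AAV-SIRT3 (SD, n = 6 each), with log2 fold changes of 0.51 (SE 0.096, limma adjusted p = 0.0120) and 0.42 (SE 0.096, adjusted p = 0.00452). All AAV-GFP libraries lay above all intact ones, as for 0.874% of tested genes. With the thalamus markers as covariate Dusp6 gave 0.26 (adjusted p = 0.262) and 0.16 (adjusted p = 0.235). With the dopaminergic markers as covariate the AAV-GFP value of Dusp6 was 0.37 (adjusted p = 0.122). In AAV-GFP against intact, 31 and 11 of all 19443 genes were called with these 2 covariates, beside 358 in the main fit. Spry2 (0.19) was higher and Etv4 (-0.28) lower in AAV-SIRT3 against intact.

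These pathway calls differed in firmness. Il6st, Sdc4, Lrp1, Kdr and Egfr in AAV-SIRT3 against intact were called under all 31 alternatives. In the same comparison Dusp6, Pcsk1, Erbb4, Frs2, Kidins220 and Etv4 were called in all 18 fits with 1 library left out but not with the thalamus covariate (limma, adjusted p from 0.0588 for Kidins220 to 0.235 for Dusp6). With that covariate 1743 of all 19443 genes were called, beside 4214 in the main fit. Erbb4 and Kidins220 were each called in 11 of the 13 settings that kept all libraries, where the value of Kidins220 fell to as little as -0.083. The call of Sorl1 was lost without intact replicate 1 or AAV-SIRT3 replicate 3, 5 or 6 (adjusted p up to 0.0742). That of Plat was lost without intact replicate 1, 2 or 4 or AAV-SIRT3 replicate 1, 2, 4 or 5 (up to 0.0735), and that of Mmp2 without intact replicate 1, 3 or 5 or AAV-SIRT3 replicate 2, 4 or 5 (up to 0.0781). That of Egf was lost without intact replicate 1, 2 or 4 or AAV-SIRT3 replicate 1, 2 or 3 (up to 0.0894). Mapk3 was not called without intact replicate 2 or 4 or AAV-SIRT3 replicate 1, 3, 5 or 6 (up to 0.0732), and Spry2 without intact replicate 3 or 4 or AAV-SIRT3 replicate 1, 2, 3 or 4 (up to 0.0717). Map2k2, an ERK kinase gene near the threshold, was not called in 11 of the 18 fits, with the highest adjusted p of 0.115 without AAV-SIRT3 replicate 6. None of these 7 was called when genes with low values were left in the fit. With the length and GC trend removed Mapk3 gave 0.039 (adjusted p = 0.412), Map2k2 0.11 (adjusted p = 0.104) and Plat -0.17 (adjusted p = 0.0852). With the thalamus covariate Mmp2 gave -0.18 (adjusted p = 0.444), Plat -0.17 (adjusted p = 0.205), Spry2 0.15 (adjusted p = 0.239), Egf -0.50 (adjusted p = 0.181), Sorl1 -0.12 (adjusted p = 0.246) and Map2k2 0.21 (adjusted p = 0.102). Without intact replicate 4 the count of pathway genes called in AAV-SIRT3 against intact was 17. In AAV-GFP against intact it was 2 without AAV-GFP replicate 4, 3 without AAV-GFP replicate 6 and 5 without AAV-GFP replicate 1.

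**Figure D5:**
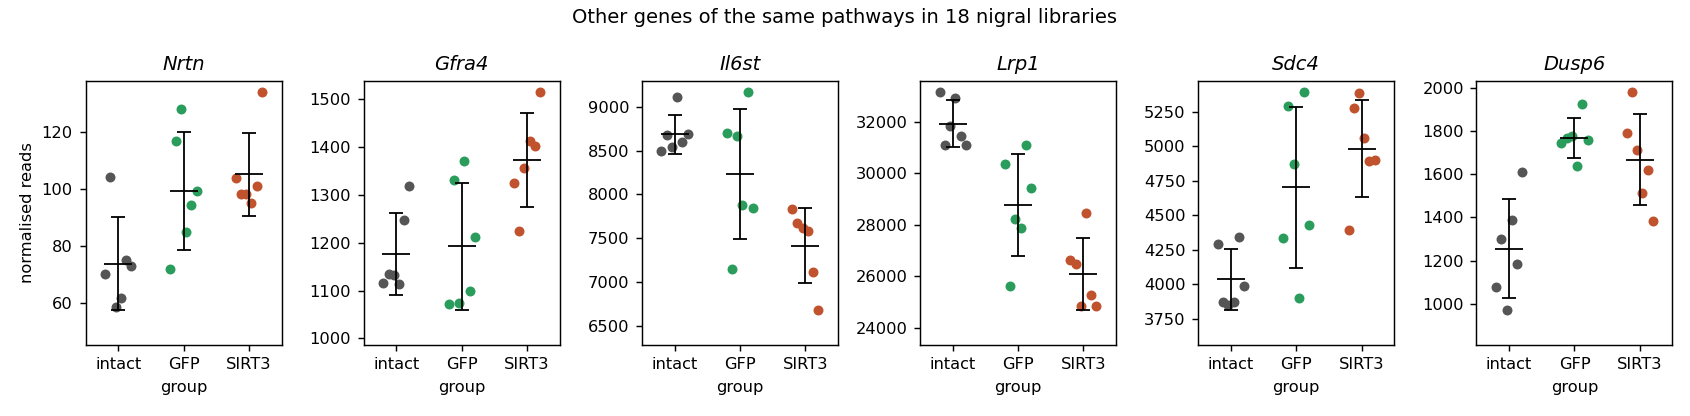
Normalised reads (vertical axis, own scale in each panel and not starting at 0) of 6 other genes of these pathways in the 18 libraries, with points for libraries and black marks for the mean and SD of each group of 6. Dusp6 is higher in every AAV-GFP than in every intact library, as for 0.874% of tested genes. Il6st and Lrp1 are lower in every AAV-SIRT3 than in every intact library, as for 4.32% of tested genes. Sdc4 is higher in every AAV-SIRT3 than in every intact library, a gap whose share over all genes is not given here.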

How the data were processed

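Poly-A RNA of 18 libraries (18 mice) was read in pairs of 100 bp from a stranded kit, per the labels' protocols. The authors deposited 1 signal value for each gene and library: HTSeq counts scaled by DESeq2, going by what the table is called. HISAT2 2.1.0, DESeq2 1.34.0 and mm10 are named in the submitters' processing notes; the annotation and the strand setting of the counting are not given in the sources used here. All values became whole reads (within 1e-06 reads) on multiplication by 1 size factor per library. In intact and AAV-SIRT3 replicate 4 that factor was close to 1, a weaker check. No column of the table was left unmatched.

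Groups came from the sample titles. The 3 groups were fitted together in limma 3.58.1 (R 4.3.3, intensity trend on, 15 residual df) on log2(value + 1), a scale that understates changes of low genes. Genes that reached 10 in 6 or more libraries were tested. The p-value of every gene tested entered the Benjamini-Hochberg adjustment. Cntf, under that filter, had an exact two-sided permutation test. Alternatives were TMM factors, pseudocounts of 0.5 and 10, no filter, means of 50 or more, the recovered counts in edgeR 4.0.16 or DESeq2 1.42.0, 2 groups only, a replicate block, marker scores as covariates, removal of trends with length and GC content, and leaving out each library. A marker score is the mean log2 level of a list. The procedure was tested on simulated data.

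Named are all 10 members; of each pathway list the genes past the threshold, at most 4 by largest change with a mean of at least 50, or examples that did not pass; and the 3 genes most like each member with a mean of at least 50. Lengths, positions and coding ends are from GENCODE M21 (GRCm38, the same assembly as mm10), matched by symbol; protein sequences and start windows were not used here. A result on 1 gene of the pathway lists is not reported here. The members and lists were chosen with earlier results of these data known. Since reads carried no molecular identifiers, remarks on depth cover counting error only.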

Additional observations from a re-analysis of the deposited data

Results flagged for a closer look

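Among the 30 groups of 6 libraries formed by the 10 members, 2 held a library set apart from the rest of its group, by Dixon's test of the gap to the nearest library; chance flags about 1 in 20 groups, or 1.5 here. Intact replicate 3 had 48050 normalised reads of Ntrk2, with the next library at 44761. AAV-SIRT3 replicate 4 had 7542 normalised reads of Ntrk3, with the next library at 6784, and still lay below every intact library.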

How the results depend on the processing

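In AAV-SIRT3 against AAV-GFP, 0 members were called under every alternative. In AAV-GFP against intact the count of 2 became 0 with the thalamus or the dopaminergic covariate and 1 with the hippocampus and cortex covariate, and ran from 1 to 2 with 1 library left out. In AAV-SIRT3 against intact the count of 2 became 1 with the thalamus covariate or the length and GC trend removed, and ran from 1 to 3 with 1 library left out. The cause was not tested; over the alternatives the percentage of all genes called ran from 0.0566 to 6.38 and from 8.23 to 27.4 in these comparisons. Replicate numbers did not pair the mice (18 same-number pairs, r from -0.10 to 0.18, 1 over 0.1); the replicate block left the member counts at 0, 2 and 2 and moved the pathway genes called in AAV-GFP against intact from 1 to 4, where DESeq2 called 10, 2 were called with the hippocampus and cortex covariate or the length and GC trend removed, and 0 with the thalamus or dopaminergic covariate. In AAV-SIRT3 against intact the 28 pathway calls became 15 with no filter, 10 with the thalamus covariate and 22, 11 in each direction, with the length and GC trend removed. Signs turned for differences that did not pass. With the dopaminergic covariate, AAV-SIRT3 against AAV-GFP gave Gfra1 -0.0086, Ptn -0.017 and Shc3 0.0052. With the length and GC trend removed, Ntrk3 in that comparison gave 0.049, and Ntrk2 gave 0.029 in AAV-GFP and 0.0053 in AAV-SIRT3 against intact. Gdnf in AAV-GFP against intact gave -0.034 with the thalamus covariate, and Gfra2 in AAV-SIRT3 against intact gave 0.00057, 0.037 and 0.0026 with the thalamus, hippocampus and cortex, and dopaminergic covariates. With 1 library left out, AAV-SIRT3 against AAV-GFP ran from -0.069 to 0.34 for Gdnf and from -0.0063 to 0.039 for Ptn, Gfra2 in AAV-SIRT3 against intact from -0.040 to 0.041, and Cntf from -0.33 to 0.13 (AAV-SIRT3 against AAV-GFP), -0.23 to 0.15 (AAV-GFP against intact) and -0.30 to 0.029 (AAV-SIRT3 against intact). Of 2414 other values over genes and settings, 2270 kept their direction and side of the threshold. Gdnf and Cntf had the fewest reads of the members; the part of depth in their spread was not tested.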
